A study of Zea mays with 18 samples.

Results

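Genes of the AP2/ERF transcription factor family were followed in leaves of maize seedlings carrying a zmzfp69 mutation and in leaves of the inbred line B73, before and during exposure to 4 °C. A gene counted as a member if its name or protein description in the deposited table contained Ethylene-responsive, AP2-EREBP, dehydration-responsive element or DRE-binding. This held for 233 genes, of which 2 were left out by the rule, leaving 231 of the 50118 genes in the table. Of these 231, 117 reached at least 1 FPKM (fragments scaled by gene length and library size) in at least 3 of the 18 libraries and are described below, and 114 did not. Most members carry the name AP2-EREBP-transcription factor with a number in the table, shortened here to EREB and that number (102 of the 117), and the others are called by their own name or identifier. The groups were the mutant after 0, 24 and 48 h at 4 °C and B73 after 0, 24 and 48 h at 4 °C, with 3 libraries each, and every library came from 50 pooled seedlings, raised at 25 °C under 16 h days. The label fields call the line a mutant in some places and a knock-down in others, the sample titles place it in the B73 background, and the number of independent lines is not given. Where a sample's description states 0 h and its title 24 or 48 h, as for replicates 2 and 3 in those mutant groups, the title was followed. All 18 samples carry the 4 °C treatment label, those at 0 h included, and 0 h was taken as before transfer. No group was kept warm for 24 or 48 h, so cold and elapsed time cannot be told apart.

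AP2/ERF proteins bind DNA through the AP2 domain and are specific to plants and a few other lineages. Ethylene response factors (ERF) act in hormone, defence and stress responses, and in the ethylene pathway they stand downstream of the receptors, EIN2 and EIN3. The DREB1 or CBF proteins bind the dehydration-responsive element of cold-inducible promoters and are the best known regulators of cold acclimation in Arabidopsis, where ICE1, CAMTA and SnRK2 proteins act on them or their regulators. AP2-like proteins, named after the floral regulator APETALA2, act mainly in development, and RAV proteins join an AP2 domain to a B3 domain.

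Libraries held 14.8 to 19.1 M reads, of which the 117 genes took 31051 to 78353 per library. The labelled tissue was checked with markers of maize leaf cells. Summed C4 mesophyll markers lay between 5064 and 33939 FPKM and summed bundle sheath markers between 3630 and 27269 FPKM over the 18 libraries, and 16 root genes summed to 51.1 to 131 FPKM. Of the 5 listed meristem and leaf base genes, knotted1, rough sheath1, gnarley1 and liguleless4 stayed at or below 0.131 FPKM in every library. The other, knotted1 induced1, ran from 19.3 to 2102 FPKM, and the list, which it makes up almost wholly, summed to 412 to 2102 FPKM in the mutant and 19.3 to 63.3 FPKM in B73 at 48 h. Its part in the results below was not tested. The table named no gene zfp69 (0 matches in names and descriptions), so the genotype labels were not checked against the targeted gene. In a principal component analysis of the 117 genes, the first component took 52.3% of the variance and placed the 0 h libraries between -12.5 and -8.71. Replicate 2 of the mutant at 24 h stood apart from its group, at -7.38 on that component, against 3.75 and 8.02 for replicates 1 and 3 and 1.37 to 8.22 for B73 at 24 h. The library scaling behind the deposited FPKM differed between groups, from 0.704 times the library total on average in the mutant at 48 h to 1.31 times in B73 at 0 h. Setting every library to the same total shifted the median difference of all tested genes to between -0.63 and -0.14 in the comparisons between times, against -0.03 to 0.01 as deposited.

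Means over the 18 libraries ran from 0.228 FPKM to 298 FPKM among the 117 genes. EREB64, a cytokinin response factor type gene, had the highest, followed by EREB182 (201 FPKM), EREB97 (150.0 FPKM), EREB17 (131 FPKM), EREB90 (127 FPKM) and EREB92 (123 FPKM). By name or description, 77 were ERF genes with a number, 10 AP2-like, 9 DREB type, 7 RAP2, 3 cytokinin response factors (CRF), 3 RAV, 1 ABR1 type and 7 others. These were 77 of 131 matched numbered ERF genes, 10 of 29 AP2-like, 9 of 26 DREB, 7 of 11 RAP2, 3 of 5 CRF and all 3 RAV genes, and none of 3 genes with wax-related descriptions passed the minimum. The groups follow names and descriptions alone. Protein sequences were not compared, so DREB relatives may stand among the numbered ERF genes. An AP2 domain was listed for 108 of the 117 and a B3 domain for the 3 RAV genes. They lay on all 10 chromosomes, with 5 on chromosome 9 and 18 on chromosome 2 as the extremes, and 2 on unplaced contigs. Chromosome positions below come from the authors' table, and no source used here names their genome build. At least 1 FPKM was reached in all 18 libraries by 53 genes, in no 0 h library by 27 genes and in no cold library by 2. Ranked by the value in the library that stood 3rd from the top, the last genes to pass had 1.01 FPKM (Zm00001d027686) and 1.02 FPKM (EREB143), and the first to miss had 0.923 FPKM (EREB188) and 0.902 FPKM (Zm00001d018288 and EREB69).

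Summed over the 117 genes, the mutant had 1273, 1690 and 1624 FPKM at 0 h, 2739, 1217 and 5256 FPKM at 24 h, and 3413, 4404 and 4611 FPKM at 48 h. B73 had 1166, 1225 and 1783 FPKM at 0 h, 2711, 4290 and 3898 FPKM at 24 h, and 4790, 2486 and 3042 FPKM at 48 h. In bulk leaf RNA, fewer cells of a type and less RNA per cell cannot be told apart. All cold libraries except replicate 2 of the mutant at 24 h lay above every 0 h library. As a share of all reads, the 117 genes took 0.210 ± 0.0239%, 0.308 ± 0.124% and 0.282 ± 0.0184% in the mutant at 0, 24 and 48 h, and 0.193 ± 0.00383%, 0.339 ± 0.0224% and 0.280 ± 0.0259% in B73 (mean ± SD, n = 3). On that scale the mutant mean was highest at 24 h, and by summed FPKM it was highest at 48 h. Members at 1 FPKM or more numbered 75.0 ± 3.46, 89.0 ± 9.17 and 91.7 ± 4.73 in the mutant at 0, 24 and 48 h, and 75.7 ± 3.21, 94.3 ± 6.81 and 88.7 ± 2.52 in B73 (mean ± SD, n = 3).

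**Figure D1:**
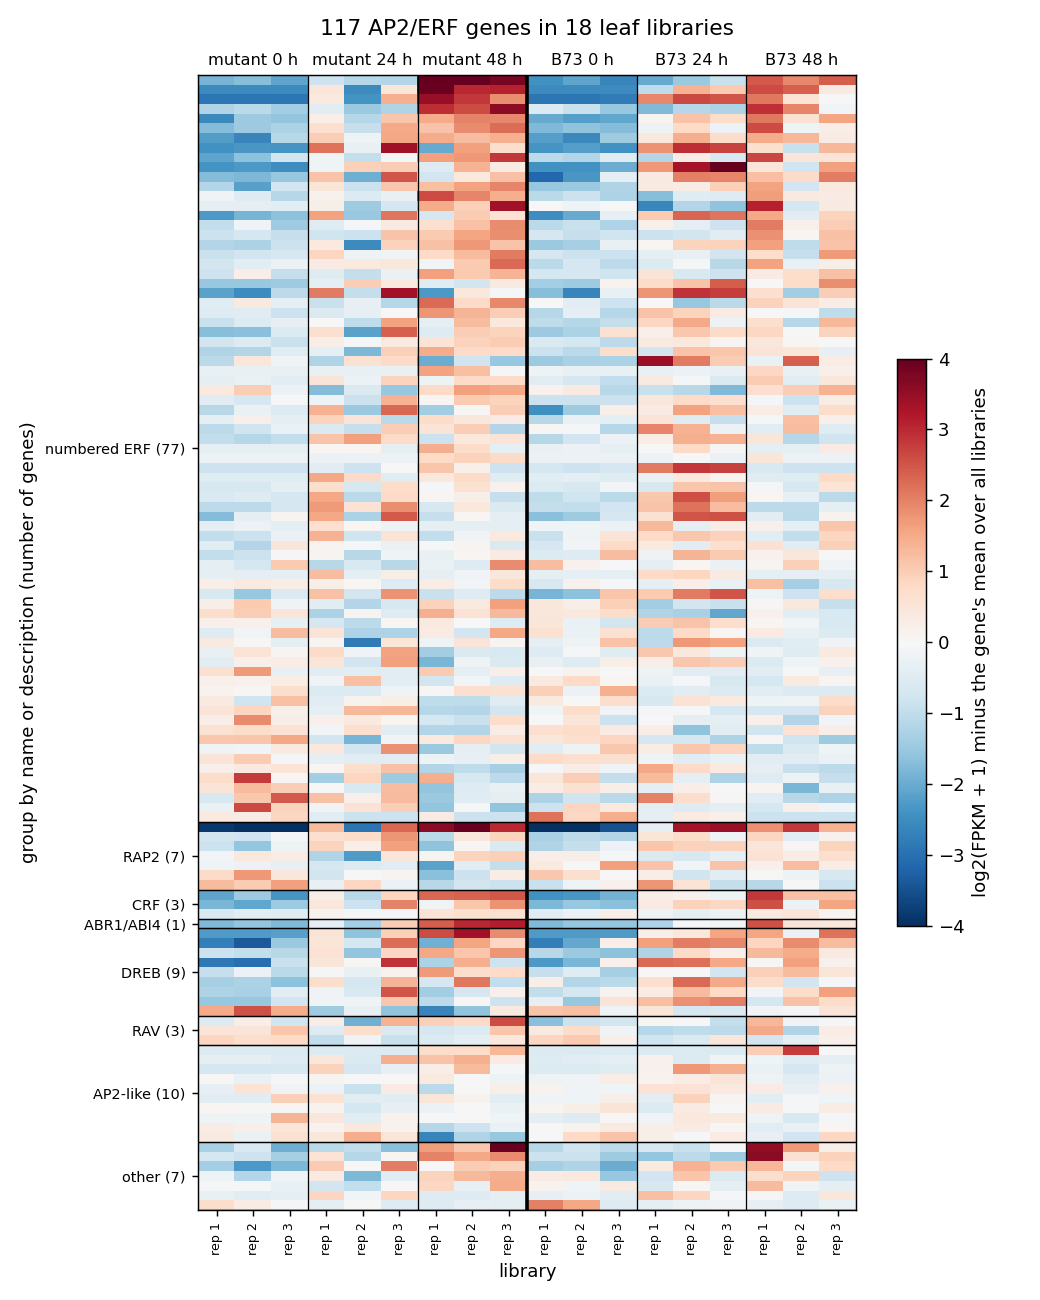
Each row is 1 of the 117 genes and each column 1 library, with the mutant on the left and B73 on the right, and color gives log2(FPKM + 1) minus the gene's mean over the 18 libraries. Rows are grouped by name or description and, within a group, ordered by the difference between 48 and 0 h. Because of that order, the 0 h columns are blue in the upper rows of most groups. Replicate 2 of the mutant at 24 h is paler there than replicates 1 and 3.

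Differences between times were tested with limma on log2(FPKM + 1) over all 23141 genes that passed the same minimum, and a gene was called at a Benjamini-Hochberg adjusted p under 0.05. Differences are given on that scale with their standard error, and they understate the change of genes near 0. In the mutant, 26 of the 117 genes were called at 24 h against 0 h, 19 higher and 7 lower, or 22.2% against 9.58% of all tested genes. At 48 h against 0 h the mutant had 56 called, 44 higher and 12 lower, or 47.9% against 36.5% of all tested genes. In B73, 36 were called at 24 h against 0 h, 30 higher and 6 lower, or 30.8% against 9.35% of all tested genes. At 48 h against 0 h B73 had 37 called, 32 higher and 5 lower, or 31.6% against 23.2%. Higher calls took 16.2% of the members against 3.76% of all genes at 24 h and 37.6% against 18.5% at 48 h in the mutant, and 25.6% against 5.26% at 24 h and 27.4% against 12.7% at 48 h in B73. The share of higher calls among the members was above that of all genes in each of these comparisons. Lower calls took 5.98% of the members against 5.82% of all genes at 24 h and 10.3% against 18% at 48 h in the mutant, and 5.13% against 4.09% at 24 h and 4.27% against 10.5% at 48 h in B73. At 24 h the shares of lower calls lay close to those of all genes, and at 48 h below them. The median difference of the 117 genes was 0.50 and 0.81 at 24 and 48 h in the mutant and 0.61 and 0.51 in B73, against -0.02, -0.03, -0.02 and -0.03 for all genes. These counts describe the genes that passed the minimum, and 27 of them reached it through cold libraries. EREB200, EREB172, EREB10, EREB136, EREB79, EREB7, Zm00001d005309, EREB63, EREB13, EREB61 and EREB87, all described below, are among these 27. The other 90 had medians of 0.27 and 0.45 at 24 and 48 h in the mutant and 0.44 and 0.48 in B73. They held 11 higher and 7 lower calls at 24 h and 27 higher and 12 lower at 48 h in the mutant, and 17 higher and 6 lower at 24 h and 23 higher and 5 lower at 48 h in B73. All tested genes were not split in this way, so the 90 have no matched share beside them.

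The counts at 24 h depended on single libraries. Calls over all tested genes in these fits are not given here, so whether the shifts are particular to the family is not shown. Without replicate 2 of the mutant at 24 h, the library that stood apart, the mutant had 42 called genes at 24 h, 36 higher and 6 lower. It had 8, 9 and 15 without replicates 1, 2 and 3 of its 0 h group and 8 without replicate 1 or 3 of its 24 h group. B73 had 17 and 18 called genes at 24 h without replicates 1 and 2 of its 0 h group, and 17 and 20 without replicates 2 and 3 of its 24 h group. A limma fit of the 0 and 24 h libraries of the mutant alone called 4 genes, and the mutant's 24 h calls of EREB200, EREB136, EREB115, EREB118 and EREB17, described below, missed the threshold in it (0.123, 0.0679, 0.0935, 0.0555 and 0.0703). With every library scaled to the same total, the 48 h against 0 h calls in the mutant split into 29 higher and 24 lower. In B73 they split into 29 higher and 12 lower. The shares of all genes under that scaling are not given here.

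**Figure D2:**
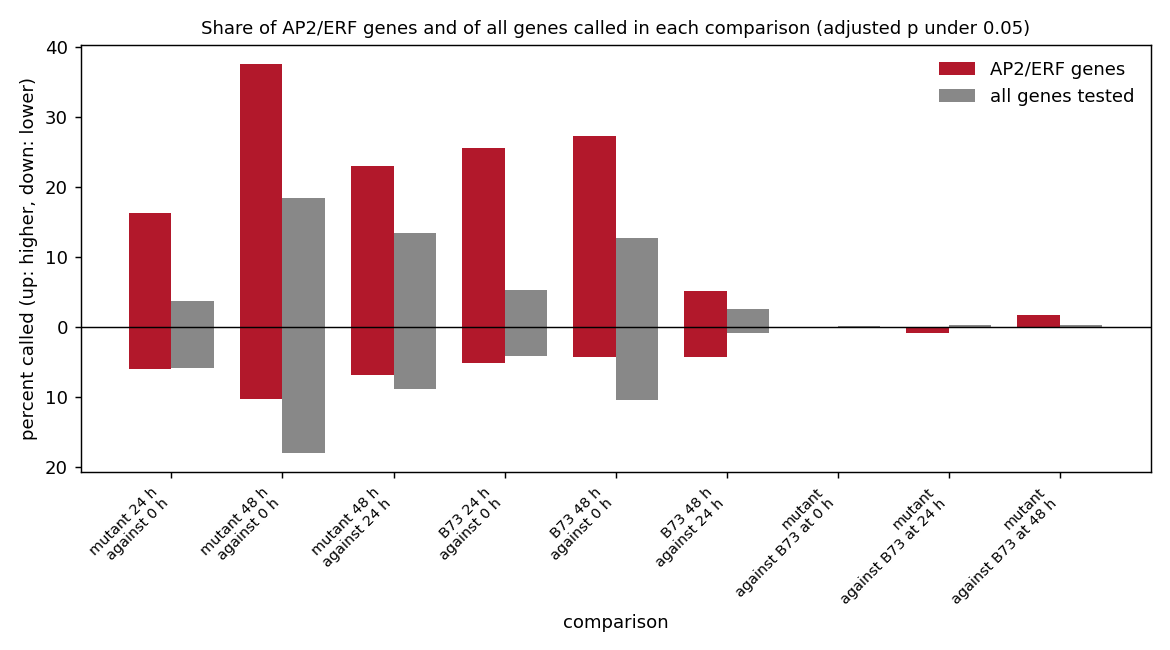
Bars give the percent of the 117 AP2/ERF genes (red) and of all 23141 tested genes (grey) called at an adjusted p under 0.05, with higher calls above and lower calls below the zero line. At 48 h against 0 h in the mutant, 37.6% of the family was higher against 18.5% of all genes, and the 3 comparisons between genotypes lie at or below 1.71%.

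The largest differences from 0 h belonged to genes with ERF or RAP2 descriptions and next to no reads before the cold. EREB200 (Zm00001d022461, chromosome 7, 178147095 to 178148306), which resembles Arabidopsis RAP2-3, a group VII ERF of the low-oxygen response, had 0.248, 0 and 0.0828 FPKM at 0 h, 42.6, 1.38 and 87.1 FPKM at 24 h, and 221, 322 and 146 FPKM at 48 h in the mutant. B73 had 0, 0 and 0.627 FPKM at 0 h, 13.3, 181 and 199 FPKM at 24 h, and 62.8, 129 and 46.1 FPKM at 48 h. Every cold library lay above every 0 h library in both genotypes. At 48 h against 0 h the difference was 7.63 ± 1.09 in the mutant (adjusted p = 0.000135) and 5.96 ± 1.09 in B73 (adjusted p = 0.00161). At 24 h it was 4.24 ± 1.09 in the mutant (adjusted p = 0.0243) and 6.09 ± 1.09 in B73 (adjusted p = 0.00296). The 24 h call in the mutant ended without any 1 of 5 libraries, replicates 1, 2 and 3 at 0 h and replicates 1 and 3 at 24 h (adjusted p of 0.0642, 0.0768, 0.0569, 0.103 and 0.108). With limma-voom on reads recovered from the FPKM the 24 h value was 0.130 in the mutant and 0.0525 in B73.

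EREB172 (Zm00001d031796, chromosome 1, 202103550 to 202104359) resembles Arabidopsis ERF109, a gene induced quickly by redox stress and wounding there. It had 0.113, 0.200 and 0.0568 FPKM at 0 h, 4.27, 10.4 and 10.97 FPKM at 24 h, and 3.16, 14.3 and 6.37 FPKM at 48 h in the mutant, and 0.104, 0.1001 and 0.502 FPKM at 0 h, 18.7, 58.1 and 142 FPKM at 24 h, and 7.25, 2.38 and 17.3 FPKM at 48 h in B73. The cold groups did not overlap the 0 h groups, and the 24 h libraries of B73 lay above those of the mutant. The rise at 24 h was 3.00 ± 0.67 in the mutant (adjusted p = 0.0132, but 0.0518 without replicate 3 of that group) and 5.49 ± 0.67 in B73 (adjusted p = 0.000216). At 48 h it was 2.79 ± 0.67 in the mutant (adjusted p = 0.00489) and 2.71 ± 0.67 in B73 (adjusted p = 0.00988). EREB10 (Zm00001d017591, chromosome 5, 200872270 to 200873106), described as ERF025, was listed at 0 in all 3 libraries of the mutant at 0 h, with 8.78, 0.413 and 18.9 FPKM at 24 h and 82.5, 52.2 and 26.3 FPKM at 48 h. In B73 it had 0, 0 and 0.0694 FPKM at 0 h, 27.3, 45.8 and 42.1 FPKM at 24 h, and 31.4, 9.91 and 6.53 FPKM at 48 h. Its adjusted p at 48 h against 0 h was 7.12e-05 in the mutant and 0.00238 in B73. EREB136, described as ERF014, was highest at 24 h in B73, with 17.8, 40.6 and 34.04 FPKM against 0.0558, 0.162 and 0 FPKM at 0 h (4.82 ± 0.88, adjusted p = 0.00357). The mutant had 23.3, 3.37 and 55.7 FPKM at 24 h against 0, 0.0719 and 0.0611 FPKM at 0 h (4.12 ± 0.88, adjusted p = 0.0105, but 0.0508 without replicate 3 at 24 h).

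**Figure D3:**
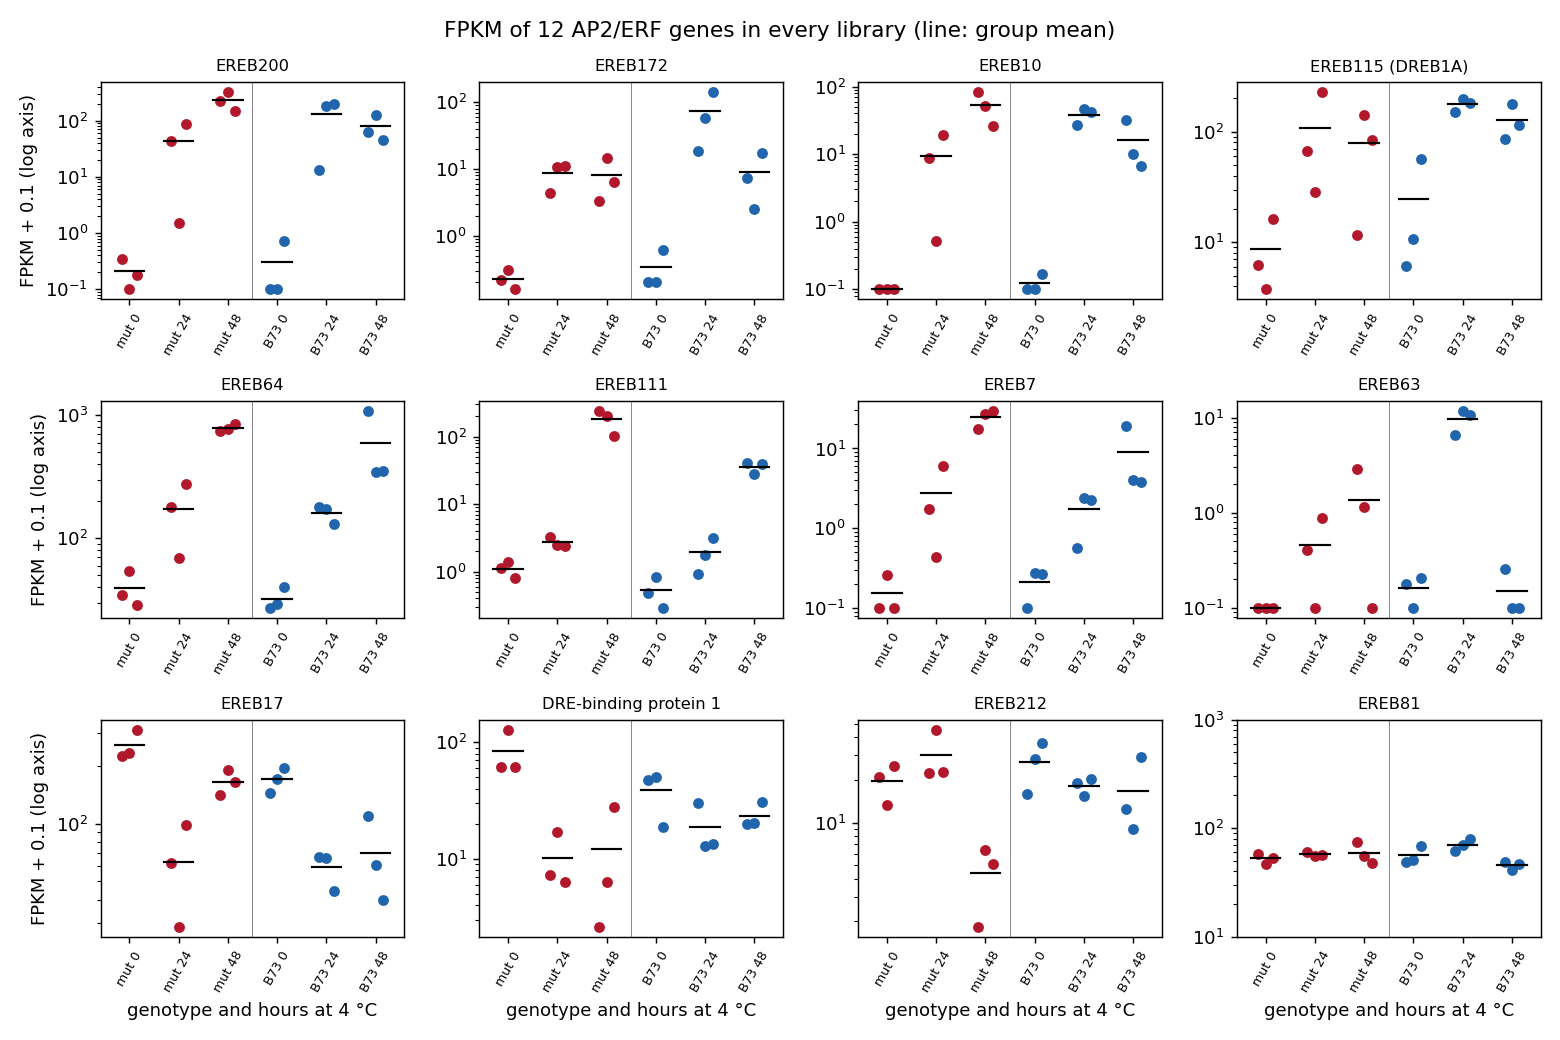
FPKM plus 0.1 on a log axis for 12 genes in every library, with the mutant (red) left of B73 (blue) in each panel, hours at 4 °C rising within a genotype, and a line at the mean of the 3 libraries plus 0.1. EREB111 is near 1 at 0 h in the mutant and lower on average in B73. At 48 h it reaches 103 to 241 FPKM in the mutant against 27.5 to 40.1 FPKM in B73. EREB63 stands out at 24 h in B73 (6.45 to 11.6 FPKM), and EREB81 varies little.

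Another set of members was low at 24 h and high at 48 h. Between 24 and 48 h, 35 of the 117 genes were called in the mutant, 27 higher and 8 lower, or 29.9% against 22.5% of all tested genes, and 11 in B73, 6 higher and 5 lower, or 9.40% against 3.48%. Higher calls took 23.1% of the members against 13.5% of all genes in the mutant and 5.13% against 2.62% in B73, and lower calls 6.84% against 8.95% in the mutant and 4.27% against 0.86% in B73. The 27 genes that reached the minimum through cold libraries held 9 higher and 2 lower calls in the mutant. In B73 they held 1 higher and 4 lower calls. The other 90, with no matched share of all genes, held 18 higher and 6 lower in the mutant and 5 higher and 1 lower in B73. With every library at the same total, the calls of the 117 became 19 higher and 18 lower in the mutant and 4 higher and 5 lower in B73. Shares of all genes under that scaling, and in the other fits named next, are not given here. Without replicate 1 of the mutant at 48 h the mutant count was 23, and without replicate 2 or 3 of B73 at 24 h the B73 count was 7 or 5. In a limma fit of the 24 and 48 h libraries of B73 alone, none of the 117 passed and 40 had an unadjusted p under 0.05, and limma-voom called 7. EREB111 (Zm00001d053195, chromosome 4, 219203452 to 219206136), described as ERF110, had 1.04, 1.27 and 0.708 FPKM at 0 h, 3.19, 2.37 and 2.29 FPKM at 24 h, and 241, 202 and 103 FPKM at 48 h in the mutant. B73 had 0.374, 0.722 and 0.188 FPKM at 0 h, 0.823, 1.65 and 3.04 FPKM at 24 h, and 40.1, 27.5 and 39.3 FPKM at 48 h. It stayed at or below 3.19 FPKM up to 24 h, and the 48 h groups lay far above. The 48 h against 24 h difference was 5.58 ± 0.33 in the mutant (adjusted p = 2.74e-07) and 3.75 ± 0.33 in B73 (adjusted p = 0.00017). Against 0 h it was 6.43 ± 0.33 in the mutant (adjusted p = 3.33e-08) and 4.68 ± 0.33 in B73 (adjusted p = 7.31e-06).

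EREB7 (Zm00001d052167, chromosome 4, 181560436 to 181561128) resembles Arabidopsis ABR1, a repressor of abscisic acid responses. It had 0, 0.156 and 0 FPKM at 0 h, 1.64, 0.333 and 5.98 FPKM at 24 h, and 17.5, 26.6 and 29.5 FPKM at 48 h in the mutant, and 0, 0.176 and 0.168 FPKM at 0 h, 0.467, 2.31 and 2.17 FPKM at 24 h, and 19.2, 3.94 and 3.71 FPKM at 48 h in B73. The 48 h libraries lay above all others of their genotype, with 1 B73 library near the mutant values and 2 well below them. The difference from 0 h was 4.57 ± 0.57 in the mutant (adjusted p = 5.41e-05) and 2.81 ± 0.57 in B73 (adjusted p = 0.00316). Zm00001d005309, described as ERF14, was listed at 0 in all 6 libraries at 0 h and had 88.3, 46.1 and 48.2 FPKM in the mutant and 34.6, 29.1 and 6.44 FPKM in B73 at 48 h (adjusted p against 0 h of 7.26e-05 and 0.00136). EREB96, described as ERF3, had 27.5, 21.5 and 43.2 FPKM at 48 h against 1.77, 0.314 and 0.614 FPKM at 24 h in the mutant (4.08 ± 0.56, adjusted p = 0.000306). EREB134 and EREB94 resemble PTI5 and PTI6, tomato proteins that bind the disease resistance kinase Pto and activate pathogenesis-related genes. EREB134 had 26.3, 17.1 and 132 FPKM at 48 h against 3.10, 3.35 and 1.72 FPKM at 24 h in the mutant (3.46 ± 0.73, adjusted p = 0.00442). In B73 EREB94 had 97.4, 11.3 and 14.2 FPKM at 48 h against 1.71, 2.84 and 1.96 FPKM at 24 h (3.07 ± 0.60, adjusted p = 0.0118, but 0.0574 without replicate 3 at 24 h).

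Other genes were higher at 24 h than at 48 h. EREB13, described as ERF013, had 0.0533, 0.0514 and 0.221 FPKM at 0 h, 3.51, 8.20 and 3.89 FPKM at 24 h, and 0, 0 and 0.624 FPKM at 48 h in B73, and its 48 h level was lower than at 24 h (-2.32 ± 0.38, adjusted p = 0.00446). In the mutant it had 0, 0 and 0.292 FPKM at 0 h, 5.75, 2.10 and 6.55 FPKM at 24 h, and 0.314, 1.74 and 0.377 FPKM at 48 h (-1.66 ± 0.38, adjusted p = 0.00691 for 48 h against 24 h, but 0.0652 with limma-voom). EREB2, which resembles Arabidopsis ERF1A, an activator of GCC-box genes, had 7.51, 8.53 and 6.71 FPKM at 48 h against 19.3, 30.6 and 42.8 FPKM at 24 h in the mutant (-1.83 ± 0.33, adjusted p = 0.00175). B73 had 13.9, 9.15 and 8.34 FPKM at 48 h against 53.9, 31.6 and 24.1 FPKM at 24 h (-1.66 ± 0.33, adjusted p = 0.0123). The groups did not overlap in either genotype.

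The descriptions ERF3, ERF4, ERF7 and ERF12 cover 19 of the 117 genes, a set chosen after the values were seen. Proteins of these names carry a repression motif (EAR) in Arabidopsis or tobacco. Of the 19, 2 rose and 1 fell at 24 h and 6 rose and none fell at 48 h in the mutant, and 6 rose and 2 fell at 24 h and 5 rose and none fell at 48 h in B73. Higher calls thus took 10.5% and 31.6% at 24 and 48 h in the mutant, against 3.76% and 18.5% of all genes. In B73 they took 31.6% and 26.3%, against 5.26% and 12.7%. The medians were 1.09 and 0.81 in the mutant and 1.09 and 0.79 in B73. EREB98, described as tobacco ERF3, had 7.85, 18.3 and 16.6 FPKM at 0 h, 62.1, 23.2 and 114 FPKM at 24 h, and 147, 209 and 201 FPKM at 48 h in the mutant. Its B73 values were 12.1, 10.4 and 11.4 FPKM at 0 h, 55.7, 115 and 87.6 FPKM at 24 h, and 227, 79.8 and 158 FPKM at 48 h. Its difference at 48 h was 3.68 ± 0.51 in the mutant (adjusted p = 0.000115) and 3.54 ± 0.51 in B73 (adjusted p = 0.000349). EREB92, described as ERF4, was among the most abundant genes at 24 h. It had 11.3, 8.48 and 25.1 FPKM at 0 h, 227, 27.1 and 549.8 FPKM at 24 h, and 9.99, 72.0 and 51.4 FPKM at 48 h in the mutant, with replicate 2 at 24 h close to the 0 h level of replicate 3, and 15.6, 7.68 and 42.9 FPKM at 0 h, 182, 403 and 366 FPKM at 24 h, and 85.7, 19.5 and 107 FPKM at 48 h in B73. Its 24 h difference in B73 was 4.02 ± 0.99 (adjusted p = 0.0185), and the call ended without replicate 1 or 2 at 0 h (0.0627 and 0.0918) or replicate 2 or 3 at 24 h (0.0783 and 0.0602). EREB97, described as ERF7, had 180.1, 440.0 and 386 FPKM at 24 h against 14.7, 20.6 and 68.5 FPKM at 0 h in B73 (3.45 ± 0.83, adjusted p = 0.0165), and it missed the threshold without the same 4 libraries (0.0761, 0.0688, 0.0752 and 0.0568). EREB138, described as tobacco ERF3, fell at 24 h in B73, with 1.53, 1.37 and 0.394 FPKM against 7.01, 6.89 and 8.86 FPKM at 0 h (-2.07 ± 0.36, adjusted p = 0.00241), and had 1.44, 5.32 and 3.12 FPKM at 24 h against 8.59, 10.7 and 7.24 FPKM at 0 h in the mutant. At 48 h it had 15.2, 7.86 and 13.6 FPKM in the mutant and 5.59, 3.28 and 2.84 FPKM in B73.

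EREB64 (Zm00001d019216, chromosome 7, 22130022 to 22130944), the most abundant member on average, resembles Arabidopsis CRF3, a cytokinin response factor. It had 34.3, 54.3 and 28.8 FPKM at 0 h, 178, 69.0 and 274 FPKM at 24 h, and 740.0, 778 and 852 FPKM at 48 h in the mutant. In B73 it had 27.1, 28.9 and 40.0 FPKM at 0 h, 179, 172 and 131 FPKM at 24 h, and 1087, 344 and 349.8 FPKM at 48 h. All 48 h libraries lay above all 24 h libraries in both genotypes, and 1 B73 library at 48 h, replicate 1, stood above the other 2 of its group. The 48 h difference from 0 h was 4.35 ± 0.50 in the mutant (adjusted p = 2.96e-05) and 3.97 ± 0.50 in B73 (adjusted p = 0.000143). At 24 h it was 2.30 ± 0.50 in B73 (adjusted p = 0.00932). EREB50, described as CRF4, rose at 48 h by 2.70 ± 0.69 in the mutant (adjusted p = 0.00725) and 2.98 ± 0.69 in B73 (adjusted p = 0.00694). The other CRF gene, Zm00001d005203, described as CRF3, passed in the mutant at 48 h (1.12 ± 0.22, adjusted p = 0.00122), but not with libraries at the same total (0.334). EREB160, described as rice ERF1, had 73.1, 61.2 and 71.0 FPKM at 48 h against 4.62, 3.26 and 11.3 FPKM at 0 h in the mutant (3.38 ± 0.50, adjusted p = 0.000175). B73 had 74.2, 66.6 and 32.2 FPKM at 48 h against 4.81, 3.44 and 8.87 FPKM at 0 h (3.13 ± 0.50, adjusted p = 0.000686). Every cold library of EREB160 lay above every 0 h library of its genotype. EREB14 carries the same description and was called higher in all 4 comparisons with 0 h. It had 28.0, 32.2 and 25.1 FPKM at 0 h, 57.2, 45.4 and 62.0 FPKM at 24 h, and 69.2, 90.02 and 95.6 FPKM at 48 h in the mutant. The B73 libraries had 30.9, 28.8 and 22.2 FPKM at 0 h, 60.1, 63.0 and 50.6 FPKM at 24 h, and 65.2, 49.4 and 47.2 FPKM at 48 h. Its groups at 24 and 48 h did not overlap those at 0 h. The difference was 0.92 ± 0.25 and 1.54 ± 0.25 at 24 and 48 h in the mutant (adjusted p of 0.0299 and 0.000316) and 1.06 ± 0.25 and 0.96 ± 0.25 in B73 (0.014 and 0.0124). With libraries at the same total none of the 4 passed (0.107 and 0.0536 in the mutant, 0.114 and 0.295 in B73). Single libraries also ended the calls of EREB14 at 24 h, replicates 1, 2 and 3 at 0 h and 1 and 3 at 24 h in the mutant (0.0915, 0.0581, 0.0929, 0.0982 and 0.102) and replicate 3 at 0 h and 2 at 24 h in B73 (0.0545 and 0.0668). Replicate 1 at 48 h ended the 48 h call in B73 (0.0583). EREB118, which resembles Arabidopsis ESR1, a promoter of shoot regeneration, had 74.0, 36.9 and 152 FPKM at 24 h against 13.6, 6.58 and 9.70 FPKM at 0 h in the mutant (2.84 ± 0.49, adjusted p = 0.00321). B73 had 48.4, 95.9 and 76.8 FPKM at 24 h against 13.9, 15.01 and 8.48 FPKM at 0 h (2.45 ± 0.49, adjusted p = 0.00619).

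The DREB group, set by name or description, held 9 genes. Of these, 3 rose and 1 fell at 24 h and 4 rose and 1 fell at 48 h in the mutant. In B73 4 rose and none fell at each cold time. Higher calls thus took 33.3% and 44.4% at 24 and 48 h in the mutant, against 3.76% and 18.5% of all genes. In B73 they took 44.4% at both times, against 5.26% and 12.7%. The medians were 1.58 and 1.81 in the mutant and 2.13 and 1.82 in B73. Of these 9, the 1 that fell was DRE-binding protein 1, placed here by its name and described as RAP2-13. Members described by an ERF number were not counted here, among them EREB17 and Zm00001d002748, which fell. The 6 DREB1 or CBF genes were set apart after the values were seen. They held 3 of the rises at 24 h in the mutant and 4 in B73, and 2 of the rises at 48 h in each genotype. At 24 h this was 50.0% of the 6 in the mutant and 66.7% in B73, against 3.76% and 5.26% of all genes. At 48 h it was 33.3% in each genotype, against 18.5% in the mutant and 12.7% in B73. EREB115 (Zm00001d021208, chromosome 7, 146038525 to 146039307) and EREB23 (Zm00001d021207, chromosome 7, 146034693 to 146035409), both described as rice DREB1A, lie 3116 bases apart. EREB115 had 6.16, 3.66 and 16.0 FPKM at 0 h, 66.9, 28.5 and 227 FPKM at 24 h, and 11.6, 141 and 84.4 FPKM at 48 h in the mutant. In B73 it had 6.01, 10.7 and 57.1 FPKM at 0 h, 149, 199 and 182 FPKM at 24 h, and 85.7, 178 and 115 FPKM at 48 h. Replicate 3 at 0 h was the highest of its group in both genotypes, and replicate 1 of the mutant at 48 h fell within the range of its 0 h group. EREB115 rose at 24 h by 3.22 ± 0.92 in the mutant (adjusted p = 0.0383) and by 3.39 ± 0.92 in B73 (adjusted p = 0.0293). Both calls rested on several libraries. The mutant call ended without replicate 1 or 2 at 0 h or replicate 1 or 3 at 24 h (0.107, 0.140, 0.0949 and 0.158), and the B73 call without replicate 1 or 2 at 0 h or any replicate at 24 h (0.131, 0.110, 0.0533, 0.1001 and 0.0769). Without the minimum on FPKM it was 0.0618 in the mutant and 0.0531 in B73, and with limma-voom 0.0534 in the mutant. EREB23 had 36.4, 26.4 and 195 FPKM at 24 h against 2.63, 2.26 and 13.2 FPKM at 0 h in the mutant, and 126, 121 and 76.0 FPKM at 24 h against 4.40, 6.45 and 29.5 FPKM at 0 h in B73. No source used here says whether the counting kept reads of these similar neighbors apart, so the share of each is uncertain.

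EREB79 (Zm00001d031728, chromosome 1, 199720829 to 199721512), described as rice DREB1J, had 0, 0 and 0.0673 FPKM at 0 h, 5.84, 0.562 and 8.25 FPKM at 24 h, and 28.4, 48.3 and 16.8 FPKM at 48 h in the mutant. In B73 it had 0 in all 3 libraries at 0 h, 4.52, 5.42 and 13.4 FPKM at 24 h, and 13.4, 3.05 and 20.6 FPKM at 48 h. It was near or at 0 before the cold and passed at 48 h in both genotypes (adjusted p of 8.66e-05 in the mutant and 0.00196 in B73). The 2 DREB2 genes, whose relatives act in drought and heat responses, rose at 48 h and not at 24 h by the test. Of all genes, 18.5% were called higher at 48 h in the mutant and 12.7% in B73. EREB22, described as DREB2B, had 64.7, 31.9 and 34.2 FPKM at 48 h against 9.57, 16.3 and 8.59 FPKM at 0 h in the mutant (1.81 ± 0.35, adjusted p = 0.00126), and 38.4, 48.0 and 27.6 FPKM against 9.71, 13.5 and 7.09 FPKM in B73 (1.82 ± 0.35, adjusted p = 0.00238). Zm00001d008665, described as DREB2A, averaged 19.8 ± 4.66 FPKM at 48 h and 2.73 ± 0.338 FPKM at 0 h in the mutant, and 15.1 ± 5.90 FPKM at 48 h and 1.78 ± 0.539 FPKM at 0 h in B73 (SD, n = 3 each). Both differences passed (adjusted p = 0.00361 in the mutant and 0.00627 in B73). DRE-binding protein 1 (Zm00001d032295, chromosome 1, 220776886 to 220777674), as the table names it, is described as RAP2-13 and moved the other way in the mutant. It had 61.6, 129 and 60.7 FPKM at 0 h, 7.19, 16.9 and 6.16 FPKM at 24 h, and 2.51, 6.23 and 27.7 FPKM at 48 h in the mutant, and 47.2, 50.0 and 18.6 FPKM at 0 h, 29.97, 12.8 and 13.3 FPKM at 24 h, and 19.6, 20.1 and 30.5 FPKM at 48 h in B73. The cold libraries of the mutant lay below all its 0 h libraries, and those of B73 overlapped their 0 h group. The difference was -2.97 ± 0.64 at 24 h (adjusted p = 0.0108, but 0.0517 without replicate 2 at 0 h) and -3.14 ± 0.64 at 48 h (adjusted p = 0.00169) in the mutant, and -0.99 ± 0.64 at 24 h (adjusted p = 0.382) and -0.60 ± 0.64 at 48 h (adjusted p = 0.529) in B73. The genotype by cold term did not pass at 24 h (adjusted p = 0.781) or at 48 h (adjusted p = 0.536).

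Genes that fell were fewer. Zm00001d002748, described as ERF038, was the 1 member called lower in all 4 comparisons with 0 h. It had 1.42, 1.31 and 2.34 FPKM at 0 h, 0.358, 0 and 0 FPKM at 24 h, and 1.28, 0 and 0 FPKM at 48 h in the mutant. The B73 libraries had 7.24, 2.24 and 3.98 FPKM at 0 h, 0.408, 1.28 and 1.11 FPKM at 24 h, and 0 in all 3 libraries at 48 h. The difference was -1.26 ± 0.36 and -1.01 ± 0.36 at 24 and 48 h in the mutant (adjusted p of 0.0385 and 0.0382) and -1.43 ± 0.36 and -2.35 ± 0.36 in B73 (0.0204 and 0.000533). The last was the largest called fall in B73 at 48 h. Its 24 h call in the mutant ended without any 1 of the 6 libraries compared (0.0643 to 0.114). Its 48 h call there ended without any replicate at 0 h or replicate 2 or 3 at 48 h (0.0551 to 0.136), and the 24 h call in B73 without replicate 1 at 0 h or 1 at 24 h (0.105 and 0.0710). Both mutant calls of Zm00001d002748 also ended without the minimum on FPKM (0.0521 and 0.0527), and the B73 call at 24 h with a pseudocount of 0.1 (0.165) and with limma-voom (0.113). EREB17 (Zm00001d052229, chromosome 4, 183995749 to 183996699), described as ERF060 and among the most abundant members at 0 h, had 226, 234 and 311 FPKM at 0 h, 62.0, 28.7 and 97.7 FPKM at 24 h, and 141, 191 and 164 FPKM at 48 h in the mutant, and 145, 171 and 195 FPKM at 0 h, 66.6, 66.0 and 44.4 FPKM at 24 h, and 109.9, 60.6 and 39.7 FPKM at 48 h in B73. All 24 h libraries lay below all 0 h libraries of their genotype, and the mutant libraries at 48 h lay between those at 24 and 0 h. It fell at 24 h by 2.16 ± 0.42 in the mutant (adjusted p = 0.00605) and by 1.53 ± 0.42 in B73 (adjusted p = 0.0324). The B73 call ended without replicate 1, 2 or 3 at 0 h or replicate 2 or 3 at 24 h (0.0670, 0.0979, 0.0888, 0.0799 and 0.114). EREB71 carries the same description and went the other way in B73, with 81.2, 30.8 and 14.2 FPKM at 24 h against 1.79, 2.09 and 2.14 FPKM at 0 h (3.51 ± 0.71, adjusted p = 0.00657). The mutant had 2.30, 10.5 and 12.0 FPKM at 24 h against 2.57, 9.26 and 5.67 FPKM at 0 h (0.34 ± 0.71, adjusted p = 0.808). EREB212 (Zm00001d026448, chromosome 10, 146059085 to 146062110), described as rice APETALA2-like protein 5, had 20.9, 13.2 and 25.0 FPKM at 0 h, 22.2, 45.4 and 22.9 FPKM at 24 h, and 1.74, 6.31 and 4.96 FPKM at 48 h in the mutant, and 15.9, 28.1 and 36.5 FPKM at 0 h, 19.1, 15.3 and 20.1 FPKM at 24 h, and 12.3, 8.97 and 29.0 FPKM at 48 h in B73. It was lower at 48 h in every mutant library, against 0 h (-2.03 ± 0.46, adjusted p = 0.00355) and against 24 h (-2.58 ± 0.46, adjusted p = 0.0018), while the B73 groups overlapped (-0.74 ± 0.46, adjusted p = 0.264 at 48 h against 0 h). The genotype by cold term of EREB212 at 48 h did not pass (adjusted p = 0.688).

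Of the 10 AP2-like genes, none was called at 24 h and 3 rose and 2 fell at 48 h in the mutant, and 1 rose at each cold time in B73. At 48 h in the mutant these were 30% higher and 20% lower, against 18.5% and 18% of all genes. In B73 10% were higher at each time, against 5.26% and 12.7%. The medians were -0.05 and -0.11 at 24 and 48 h in the mutant and 0.25 and -0.05 in B73. Of the 3 RAV genes, 1 fell at 24 h in the mutant (5.82% of all genes did) and none was called in the other comparisons with 0 h. EREB81, described as rice APETALA2-like protein 1 and the most abundant of its group, had 57.8, 46.3 and 53.5 FPKM at 0 h, 59.9, 55.6 and 56.6 FPKM at 24 h, and 73.7, 55.3 and 48.0 FPKM at 48 h in the mutant. The B73 libraries had 48.6, 50.7 and 68.6 FPKM at 0 h, 61.8, 69.3 and 79.7 FPKM at 24 h, and 48.1, 41.2 and 47.0 FPKM at 48 h. Its 48 h difference from 0 h was 0.15 ± 0.24 in the mutant (adjusted p = 0.661) and -0.28 ± 0.24 in B73 (adjusted p = 0.428). EREB182, described as Arabidopsis ERF073, a low-oxygen response factor, had the second highest mean of the 117 genes but no called difference from 0 h. It had 131, 200.2 and 215 FPKM at 0 h, 244, 102 and 546 FPKM at 24 h, and 48.5, 152 and 117 FPKM at 48 h in the mutant. Its B73 values were 143, 121 and 205 FPKM at 0 h, 211, 368 and 346 FPKM at 24 h, and 121, 155 and 198 FPKM at 48 h. The range of the mutant at 24 h held all other libraries except 1, replicate 1 of the mutant at 48 h.

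The RAV gene that fell was EREB162, with 1.73, 3.90 and 1.92 FPKM at 24 h against 8.80, 7.84 and 8.52 FPKM at 0 h in the mutant (-1.47 ± 0.38, adjusted p = 0.0264). The call ended without any 1 of 5 libraries, replicates 1, 2 and 3 at 0 h and replicates 1 and 3 at 24 h (0.0809, 0.0693, 0.0624, 0.105 and 0.0894), and in a fit of those 2 groups alone (0.0618). B73 had 2.16, 2.62 and 6.37 FPKM at 24 h against 8.92, 10.3 and 5.19 FPKM at 0 h (adjusted p = 0.111). EREB126, the most abundant RAV gene, had 14.3, 25.9 and 11.7 FPKM at 0 h, 26.0, 4.90 and 56.9 FPKM at 24 h, and 42.3, 37.1 and 134 FPKM at 48 h in the mutant. Its B73 values were 6.04, 11.2 and 12.5 FPKM at 0 h, 22.7, 21.5 and 10.6 FPKM at 24 h, and 55.2, 19.3 and 20.3 FPKM at 48 h. Its 48 h difference from 0 h did not pass in the mutant (1.80 ± 0.70, adjusted p = 0.0566) or in B73 (1.46 ± 0.70, adjusted p = 0.144). EREB192, described as RAP2-6, rose at 24 h, with 102, 64.5 and 171 FPKM against 29.9, 18.1 and 47.5 FPKM at 0 h in the mutant (1.78 ± 0.47, adjusted p = 0.0272). The same gene had 118, 104 and 105 FPKM against 22.9, 28.0 and 45.7 FPKM in B73 (1.78 ± 0.47, adjusted p = 0.0251). The mutant call ended without replicate 1 or 2 at 0 h or replicate 1 or 3 at 24 h (0.0765, 0.122, 0.0785 and 0.114) and in a fit of those 2 groups alone (0.105). The B73 call ended without replicate 1 or 2 at 0 h or any replicate at 24 h (0.105, 0.0910, 0.0599, 0.0774 and 0.0633). Zm00001d016535, described only as like an ERF, had 70.8, 31.7 and 112 FPKM at 48 h against 37.8, 36.8 and 31.9 FPKM at 0 h in the mutant (adjusted p = 0.175), and 94.7, 35.5 and 30.2 FPKM against 42.9, 34.7 and 50.9 FPKM in B73 (adjusted p = 0.855).

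Between the genotypes, few of the 117 genes differed. None passed at 0 h by limma or limma-voom, where 3 had an unadjusted limma p under 0.05 and 0.212% of all genes were called, 0.16% higher and 0.0519% lower in the mutant. At 24 h 1 gene was lower in the mutant, or 0.855% against 0.199% of all genes called lower, 0.212% called higher and 0.411% called in either direction, with 15 members at an unadjusted p under 0.05. At 48 h 2 genes were higher in the mutant, or 1.71% against 0.255% of all genes called higher, 0.0778% called lower and 0.333% in either direction, with 24 members at an unadjusted p under 0.05. The 1 at 24 h was EREB63 (Zm00001d042593, chromosome 3, 173057147 to 173057683), described as ERF020. It had 0.302, 0 and 0.783 FPKM in the mutant and 6.45, 11.6 and 10.6 FPKM in B73 at 24 h. At 0 h it had 0 in all 3 libraries of the mutant and 0.0783, 0 and 0.108 FPKM in B73, and at 48 h 2.77, 1.05 and 0 FPKM in the mutant and 0.154, 0 and 0 FPKM in B73. The peak at 24 h in B73 did not overlap any other group, and the difference between genotypes there was -2.96 ± 0.37 (adjusted p = 0.00243). It was 0.0611 with a pseudocount of 0.1 and 0.174 in a fit of the 6 libraries at 24 h alone. The genotype by cold term at 24 h was -2.87 ± 0.52 and did not pass (adjusted p = 0.0852). It passed with libraries at the same total (0.0480), with the 4 groups compared alone (0.0342), and without replicate 1 or 3 of the mutant at 48 h (0.0237 and 0.0353).

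At 48 h, EREB111 had 241, 202 and 103 FPKM in the mutant and 40.1, 27.5 and 39.3 FPKM in B73, with no overlap (2.25 ± 0.33, adjusted p = 0.00502). The adjusted p was 0.0626 with a pseudocount of 0.1 and 0.265 in a fit of the 48 h libraries alone, and the genotype by cold term at 48 h was 1.76 ± 0.47 (adjusted p = 0.374). EREB133, which also carries the description ERF110, had 6.51, 4.68 and 3.40 FPKM in the mutant and 1.23, 1.12 and 0.0813 FPKM in B73 at 48 h (1.73 ± 0.34, adjusted p = 0.0367). At 24 h the order was reversed, with 0.482, 0.744 and 1.25 FPKM in the mutant and 3.92, 3.14 and 1.77 FPKM in B73 (adjusted p = 0.192). The 48 h call of EREB133 ended without replicate 1 or 2 of the mutant at 48 h (0.164 and 0.0937), replicate 3 of B73 at 48 h (0.182), replicate 1 of the mutant or of B73 at 0 h (0.0589 and 0.0556), or replicate 2 of B73 at 24 h (0.0536). Without any 1 of those libraries 1 member passed at 48 h. The call also ended with a pseudocount of 0.1 (0.155), without the minimum on FPKM (0.0512), with libraries at the same total (0.197), with limma-voom (0.250) and in a fit of the 48 h libraries alone (0.353). The count at 24 h was 3 without replicate 3 of the mutant and 2 without replicate 1 of B73 at 24 h, and the count at 0 h was 1 without replicate 3 of B73. Described as ERF110 were 8 of the 117 genes, EREB111 and EREB133 among them, a set chosen after the values were seen. Of these, none was called at 24 h and 5 rose and 1 fell at 48 h in the mutant, and 2 rose at 24 h and 3 rose at 48 h in B73. Higher calls thus took 62.5% and lower calls 12.5% at 48 h in the mutant, against 18.5% and 18% of all genes. For B73 higher calls took 25.0% and 37.5% at 24 and 48 h, against 5.26% and 12.7%. The medians were 0.35 and 1.60 in the mutant and 0.39 and 0.78 in B73.

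No genotype by cold term passed for any of the 117 genes by limma or limma-voom, where 0.00432% of all genes at 24 h and 0.00864% at 48 h did. At an unadjusted p under 0.05 there were 11 genes at 24 h and 14 at 48 h, so a difference between the genotypes in their cold response was not shown for single members. The 2 smallest p-values after EREB63 at 24 h belonged to EREB148, described as ERF071 (-1.69 ± 0.51, adjusted p = 0.486), and EREB71 (-3.17 ± 1.01, adjusted p = 0.531). EREB148 had 1.24, 0.729 and 2.76 FPKM in the mutant and 6.22, 6.82 and 4.82 FPKM in B73 at 24 h, with no overlap. EREB71 at 48 h had 0.923, 3.34 and 1.66 FPKM in the mutant and 5.27, 38.3 and 8.32 FPKM in B73, with a genotype by cold term of -3.29 ± 1.01 (adjusted p = 0.437). Its mutant level at 0 h was 2.57, 9.26 and 5.67 FPKM, against 1.79, 2.09 and 2.14 FPKM in B73. At 0 h the smallest p belonged to EREB15, described as ERF003, with 0.776, 4.94 and 14.3 FPKM in the mutant and 0.190, 0.594 and 0.327 FPKM in B73 (2.00 ± 0.63, adjusted p = 0.577).

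**Figure D4:**
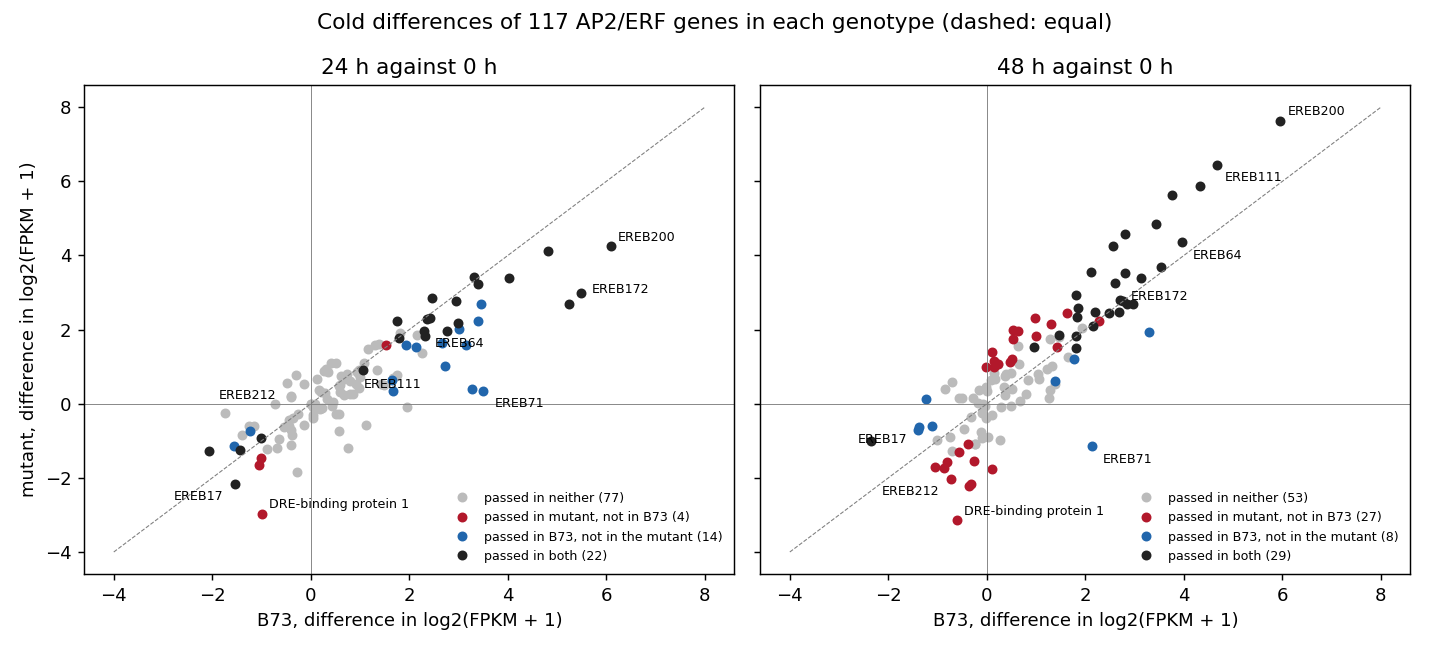
Each point is 1 of the 117 genes, placed by its cold difference on the log2(FPKM + 1) scale in B73 (horizontal axis) and in the mutant (vertical axis) at 24 h (left) and 48 h (right), and colored by the genotype in which it passed against 0 h. At 24 h 22 genes passed in both genotypes, 4 in the mutant and not in B73, and 14 in B73 and not in the mutant, or 18.8%, 3.42% and 12.0% against 4.40%, 5.17% and 4.95% of all genes. At 48 h these were 29, 27 and 8, or 24.8%, 23.1% and 6.84% against 17.9%, 18.6% and 5.35%. In the fit of all libraries, no difference between the genotypes' cold responses passed for any of the 117 genes.

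Several members lie next to each other. Among pairs less than 100 kb apart, EREB181 and EREB182, both described as ERF073, are separated by 5933 bases on chromosome 1, yet EREB182 averaged 201 FPKM over the 18 libraries and EREB181 2.86 FPKM. EREB180, described as RAP2-2, lies 24477 bases further, with 27.8 FPKM. EREB61 and EREB87, both described as ERF6 and 42303 bases apart on chromosome 2, were under 0.5 FPKM at 0 h and highest on average at 24 h. EREB87 had 5.07, 0 and 2.66 FPKM in the mutant and 3.46, 11.5 and 5.62 FPKM in B73 at that time, and EREB61 had 2.02, 0 and 0.505 FPKM in the mutant and 1.16, 1.29 and 0.644 FPKM in B73. Another neighbor, EREB198, 68318 bases from EREB87, stayed between 6.18 and 41.1 FPKM throughout. EREB29 and EREB83, 8911 bases apart on chromosome 8, differed in level, with 1.32 FPKM and 46.1 FPKM on average.

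The pathway upstream of the ERF genes was followed in lists drawn by description. Of 31 listed ethylene synthesis genes, 19 were tested. The wording also took in S-adenosylmethionine synthases, an oxidase homolog (Zm00001d025023) and a probable aminotransferase (Zm00001d045479). The homolog was the gene that fell at 48 h in B73, and the aminotransferase the gene that fell at 48 h in the mutant. In the mutant 5 rose and none fell at 24 h and 10 rose and 1 fell at 48 h, and in B73 5 rose and none fell at 24 h and 7 rose and 1 fell at 48 h. Higher calls thus took 26.3% and 52.6% at 24 and 48 h in the mutant, against 3.76% and 18.5% of all genes. In B73 they took 26.3% and 36.8%, against 5.26% and 12.7%. The medians were 0.89 and 1.23 in the mutant and 0.81 and 1.00 in B73. 1-aminocyclopropane-1-carboxylate synthase6, of the enzyme family that makes the ethylene precursor, averaged 47.7 ± 35.2 FPKM at 24 h and 0.0868 ± 0.129 FPKM at 0 h in the mutant, and 52.1 ± 31.9 FPKM at 24 h and 0.0126 ± 0.0218 FPKM at 0 h in B73 (SD, n = 3 each). 1-aminocyclopropane-1-carboxylate oxidase2, which turns the precursor into ethylene, averaged 749 ± 531 FPKM at 48 h and 58.2 ± 12.8 FPKM at 0 h in the mutant, and 977 ± 553 FPKM at 48 h and 70.5 ± 24.7 FPKM at 0 h in B73. Both were called in these comparisons. Of 37 listed genes of ethylene perception and signalling, 28 were tested, and calls went both ways: 1 rose and 2 fell at 24 h and 7 rose and 6 fell at 48 h in the mutant, and 2 each rose and fell at 24 h in B73, where 48 h gave 5 rises and 1 fall. At 48 h these were 25.0% higher and 21.4% lower in the mutant, against 18.5% and 18% of all genes, and 17.9% and 3.57% in B73, against 12.7% and 10.5%. At 24 h the shares lay between 3.57% and 7.14%, against 3.76% to 5.82% of all genes. The medians were -0.40 and 0.36 at 24 and 48 h in the mutant and -0.25 and 0.25 in B73. A gene for an EIN3-binding F-box protein, which removes EIN3, fell at 24 h, to 3.43 ± 2.52 FPKM in the mutant against 19.9 ± 1.28 FPKM at 0 h, and to 3.46 ± 1.25 FPKM in B73 against 14.4 ± 1.36 FPKM at 0 h (Zm00001d053642, adjusted p = 0.00148 in the mutant and 0.00568 in B73). At 48 h it was higher than at 24 h again, with 18.9 ± 6.07 FPKM in the mutant and 15.5 ± 2.55 FPKM in B73 (adjusted p = 0.000858 and 0.0102). Zm00001d015778 and EIN3-binding F-box protein1 carry the same description. Neither was called at 24 h against 0 h in either genotype. A gene described as the receptor-associated kinase CTR1 (Zm00001d046569) was higher at 48 h, with 79.0 ± 8.92 FPKM against 8.80 ± 0.938 FPKM at 0 h in the mutant and 42.5 ± 18.4 FPKM against 7.03 ± 0.551 FPKM in B73. Of 39 listed regulators of CBF/DREB genes, 21 were tested. In the mutant 1 rose and 1 fell at 24 h and 6 rose and 8 fell at 48 h, and in B73 1 rose and none fell at 24 h and 3 rose and 3 fell at 48 h. Calls thus took 28.6% higher and 38.1% lower at 48 h in the mutant, against 18.5% and 18% of all genes. In B73 they took 14.3% in each direction at 48 h, against 12.7% and 10.5%. At 24 h they took 4.76% in each direction in the mutant, against 3.76% and 5.82%, and 4.76% higher in B73, against 5.26%. The medians were -0.20 and -0.39 at 24 and 48 h in the mutant and 0.15 and -0.01 in B73. An ICE1-type gene, bHLH-transcription factor 175, averaged 62.3 ± 31.1 FPKM at 48 h and 16.5 ± 18.9 FPKM at 0 h in the mutant (adjusted p = 0.0214), and 31.6 ± 29.4 FPKM at 48 h and 5.19 ± 2.90 FPKM at 0 h in B73 (adjusted p = 0.0400). Genes described as calmodulin-binding transcription activators (CAMTA) were set apart from that list after the values were seen. Of 10 tested, 6 were lower and 1 was higher at 48 h in the mutant, against 18% and 18.5% of all genes. In B73 2 were lower and none higher, against 10.5% and 12.7%. The higher one, CAMTA-transcription factor 3, averaged 9.11 ± 3.01 FPKM at 48 h and 3.57 ± 0.798 FPKM at 0 h in the mutant (1.11 ± 0.38, adjusted p = 0.0316). None of the tested genes of the 3 lists passed between genotypes at any time.

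The 114 matched genes below the minimum were near absent from these leaves. Of them, 46 had no read in any library and 95 reached 1 FPKM in none, and the highest single value was 5.67 FPKM. Their cold differences were not tested.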

How the data were processed

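Leaf RNA of 18 samples, 3 in each of 6 groups, was sequenced. The authors deposited FPKM values per gene, and the submitters' processing notes name featureCounts 1.5.0-p3, HISAT2 2.0.5, DESeq2 1.20.0 and fastp. No source used here gives the parameters, the build of the genome or whether counting used strand, so reads of overlapping or antisense genes cannot be told apart. Dividing each deposited FPKM value by what 1 read is worth gave whole reads (100% of values within 0.01 reads) and library totals of 14.8 to 19.1 M. Replicates differed by a chi-square of at least 42.7 per gene, so each counted as 1 sample.

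Tests covered the 23141 of 50118 genes that reached 1 FPKM in 3 or more of the 18 libraries. One limma 3.58.1 model (R 4.3.3) of the 6 group means on log2(FPKM + 1) was fitted to all libraries, with a trended prior, 12 residual degrees of freedom and Benjamini-Hochberg adjustment over all tested genes in each of 11 comparisons. It was tested on simulated data. All adjusted p-values printed come from limma, and they measure the spread between samples labelled biological replicates. Replicate numbers did not pair the samples, and the check is given with the alternatives.

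The text names, for each comparison with 0 h, members from the 10 largest called rises and 6 largest called falls whose higher group averaged 5 FPKM or more. For the other comparisons it names members from the 5 largest in each direction, or the 3 smallest p-values where none passed. It adds members called one way in every comparison with 0 h and the 2 most abundant of each description group. EREB22, Zm00001d008665, the members at the edge of the minimum and the neighboring pairs were chosen after their values were seen. So were the genes named from the pathway lists, CAMTA-transcription factor 3 among them, and the finer description groups, the CAMTA group included. For the named pathway genes, results under the alternatives and without single libraries are not given here. The members and lists were chosen with earlier results of these data known.

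Alternatives were a pseudocount of 0.1, no filter, library-total and median-of-ratios scaling, limma-voom on recovered reads, the replicate number as a block, the compared groups alone, and each library left out in turn. Protein sequences were not used here.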

Additional observations from a re-analysis of the deposited data

How the results depend on the processing

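Counts in this section cover members alone, with no share of all genes beside them. Median-of-ratios scaling changed no count of called members. Fitting the compared groups alone gave 22 called members for B73 at 48 h against 0 h, 0 for B73 at 48 h against 24 h, 4 for the mutant at 24 h against 0 h, 15 for the mutant at 48 h against 24 h, 0 between genotypes at 24 h, 0 at 48 h, and 1 for the genotype by cold term at 24 h. For B73 at 48 h against 24 h, no filter gave 7 and limma-voom 7. Between genotypes, a pseudocount of 0.1 gave 0 at 24 h and 0 at 48 h, while library-total scaling gave 1 and limma-voom 1 at 48 h. Library-total scaling gave 1 for the genotype by cold term at 24 h. The cause of these shifts was not tested, except that fits of the compared groups alone use fewer samples. With limma-voom the mutant had 21 and 51 called members at 24 and 48 h against 0 h and 39 between the cold times, and B73 had 31 and 33 at 24 and 48 h against 0 h.

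Leaving out each library in turn gave 8 to 42 called members for the mutant at 24 h against 0 h, 39 to 60 at 48 h against 0 h, and 23 to 38 at 48 h against 24 h. For B73 these were 17 to 44, 27 to 41 and 5 to 16. Between genotypes they were 0 to 1 at 0 h, 1 to 3 at 24 h and 1 to 3 at 48 h, and for the genotype by cold terms 0 to 1 at 24 h and 0 at 48 h.

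Replicate numbers did not pair the samples. Deviations of same-numbered libraries correlated above 0.1 in 14 of 45 pairs (-0.499 to 0.557), and 6 of 18 libraries correlated best with their own number. The replicate block gave 29 and 52 called members for the mutant at 24 and 48 h against 0 h and 38 between the cold times, 37, 39 and 10 for B73 in the same order, and 0, 1 and 2 between genotypes at 0, 24 and 48 h.

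Of 121 results for single genes, 54 were unchanged under each alternative and without each library, and none changed direction. The 121 include the results given as not passing, for which unchanged means still not passing. All of those except the genotype by cold term of EREB63 at 24 h are among the 54. Fitting the compared groups alone ended 48 of these calls, no filter 21, limma-voom 19, library-total scaling 10, a pseudocount of 0.1 8 and the replicate block 2. With 3 libraries per group, differences in genes near 1 FPKM rest on few reads.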
